A study of Rattus norvegicus with 6 samples.

Results

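The left-right axis signalling genes considered here are Nodal, Gdf1 and Gdf3 (secreted ligands), Cfc1 (a co-receptor), Acvr2b (a receptor), and Lefty1 and Lefty2 (secreted inhibitors). They were chosen by name, as all non-control probes whose gene name on the array was one of these 7. Of the 7 genes, among 22094 gene or transcript names on the array, 6 had a probe, and Gdf1 had none under its own name. The 6 genes were covered by 8 of the 30367 probes on the array, each printed in 1 or 2 spots, which gave 15 spots in all.

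RNA came from whole heart primordia of Wistar rat embryos (spelled Wister in the sample labels) on embryonic day 10, the day on which the rat heart begins to beat. The pre-heartbeat group (n = 3) held primordia with a flat central shape, and the post-heartbeat group (n = 3) held primordia with a raised central shape, from embryos with slightly more somites. The groups were thus separated by shape and not by an observed beat, no treatment or mutation was used, and each array carried the RNA of 1 sample labelled as a biological replicate. The primordium was not divided into left and right or into first and second heart field, so the sides cannot be compared, and in such bulk tissue fewer cells of a type and less RNA per cell cannot be told apart.

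Nodal is a ligand of the transforming growth factor beta superfamily that is made around the node and then in the left lateral plate mesoderm of the early embryo. With Gdf1 it binds a receptor complex that holds Acvr2b and an EGF-CFC co-receptor such as Cfc1, and the signal passes through Smad2, Smad3, Smad4 and Foxh1 to genes that include Nodal itself and Lefty2. Lefty1, best known from the midline, and Lefty2, best known from the left lateral plate, are induced by the signal and antagonize it. In the heart this left-sided program precedes looping and marks the left side of the atria and of the outflow and inflow regions.

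The probes on which the results turn are 60 bases long and are given 5′ to 3′ as the array files list them. Nodal and the probe that reads the shared Cers1 and Gdf1 transcript are shown together because both fall in related ligand sequences, and capitals mark the 2 runs of 8 bases that they have in common. For Lefty2 the first 30 bases are given. Lefty1 and Lefty2 are shown because the results turn on these 2 similar genes and because the longest run shared by their probes was 6 bases, so that they are read at unlike sequences. The first Acvr2b probe is shown as that of the receptor. In no pair of probes of these genes did the shared run exceed 9 bases. Binding of a probe to the transcripts of its relatives was not tested.
Lefty2: gctaaatccccaaccccgtgtctacagctt
Lefty1: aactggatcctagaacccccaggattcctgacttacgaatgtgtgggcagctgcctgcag
Nodal: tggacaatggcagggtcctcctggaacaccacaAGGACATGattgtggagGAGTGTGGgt
Cers1 and Gdf1: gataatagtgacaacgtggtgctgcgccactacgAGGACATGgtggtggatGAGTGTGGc
Acvr2b: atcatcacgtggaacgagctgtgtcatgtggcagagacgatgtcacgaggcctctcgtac

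Values below are log2 signals minus the 75th percentile of all non-control spots on the same array, so that 0 is the level of that percentile, and each difference is post-heartbeat minus pre-heartbeat. That percentile corresponded to an intensity of 1146 to 1702 units, depending on the array, and 0 spots were saturated. Arrays of a group correlated at r of 0.9797 to 0.9968 across the probes that were measured on every array. The arrays came from 2 slides, slide 1 with 1 pre-heartbeat array (replicate 1) and 2 post-heartbeat arrays (replicates 1 and 2), and slide 2 with the other pre-heartbeat arrays (replicates 2 and 3) and post-heartbeat replicate 3. Both groups were therefore on both slides, and differences are given over all arrays, with the slide as a block, and within each slide. All 7 markers of cardiac muscle (Actc1, Tnnt2, Myh6, Myh7, Nppa, Myl7 and Nkx2-5) were well above background on all 6 arrays, so the labelled tissue carried its defining markers.

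After initiation of the heartbeat, the inhibitors Lefty2 and Lefty1 were higher than before it. In the group means over all arrays, Lefty2 was higher by 4.71 fold. Lefty1 was higher by 4.72 fold with its dim pre-heartbeat arrays set to the dimmest signal that was well above background. That fold is not a lower limit. For Lefty1 only 1 of the 3 pre-heartbeat arrays was well above background. With the slide as a block the folds were 3.56 for Lefty2 and 3.79 for Lefty1. On slide 1, where all arrays measured both genes, the folds were 2.80 for Lefty2 and 2.06 for Lefty1. The co-receptor Cfc1 and the receptor Acvr2b differed by less than their spread, and Nodal lay between. None of these genes, Lefty1 and Lefty2 included, passed the limma test over all probes without a block (0 of 6 tested probes, with 0.14% of all 19299 tested probes called, 0.119% higher and 0.0207% lower). At an unadjusted p under 0.05, 2 of the 6 probes passed (Lefty1 and Lefty2), where 7.01% of all tested probes did. Lefty1 entered the tests only through the post-heartbeat group, in which it was high, so counts of called probes that include it are partly fixed by the filter and are given as a description. With a filter on all 6 arrays 5 of the probes remained, Lefty2 among them and Lefty1 not. With the slide as a block, Lefty1 and Lefty2 passed, 2 of the 6 probes, both higher, where 1.62% of all tested probes were called, 1.16% higher and 0.461% lower. By the selection of the study's methods, which took upregulated genes only (at least 1.5 fold, and p under 0.05 before adjustment), Lefty2 alone of these genes was chosen, where 1.89% of all tested probes were. Applied here to decreases as well, the same thresholds chose 1.15% of the tested probes as lower, 3.04% in all. Both Lefty1 and Lefty2 calls with the block depended on single arrays, as given with each gene.

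**Figure D1:**
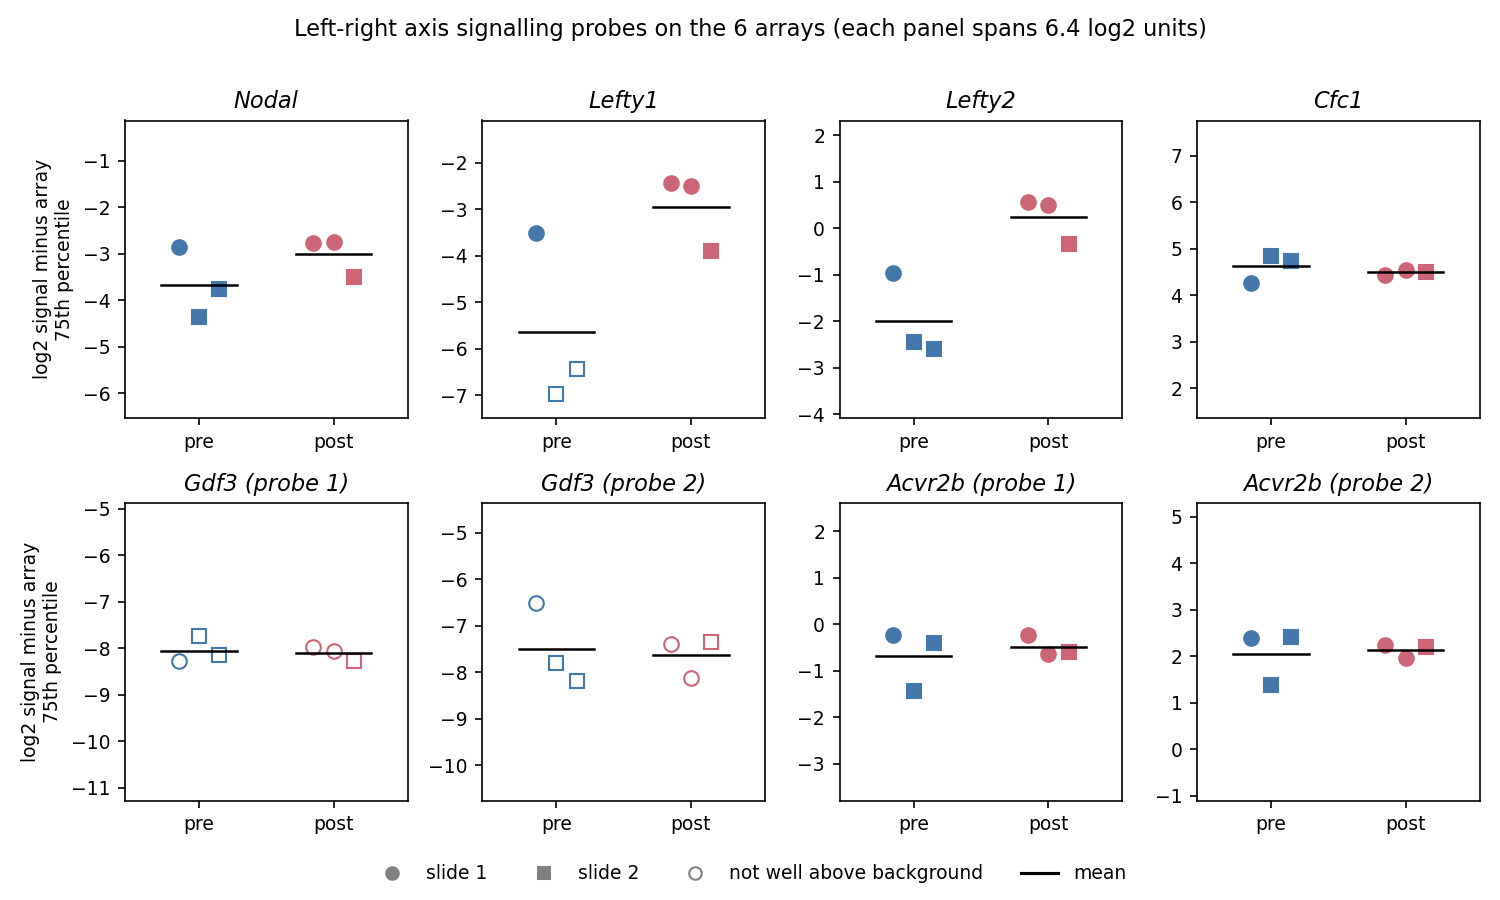
Log2 signal minus the array's 75th percentile (vertical axis) of the 8 probes in the pre-heartbeat and post-heartbeat groups, 1 point per array, with bars at the group means, circles for slide 1, squares for slide 2 and open symbols for signals not well above background. Only for Lefty2 did all 3 post-heartbeat arrays lie above all 3 pre-heartbeat arrays, and both Gdf3 probes were not well above background on any array.

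Of the ligands, Nodal was measured well above background on all 6 arrays by 1 probe (chr20:29554669-29554728, plus strand, rn4). Its log2 signal was -2.86, -4.37 and -3.77 in pre-heartbeat replicates 1, 2 and 3, and -2.77, -2.75 and -3.51 in post-heartbeat replicates 1, 2 and 3. The groups overlapped, since pre-heartbeat replicate 1 lay above post-heartbeat replicate 3, and in each group the arrays of slide 1 were the higher ones. The difference was 0.65 ± 0.40 (SE, n = 3 per group), or 1.57 fold, with a 95% interval from -0.29 to 1.60 and a limma adjusted p of 0.866. Blocking on the slide gave 0.33 ± 0.20 (SE; limma adjusted p = 0.770), and the difference was 0.10 within slide 1 and 0.55 within slide 2. An increase of Nodal was therefore not detectable with these arrays, and the interval includes both no difference and a rise above 2 fold.

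Gdf3, a ligand related to Gdf1 that is best known from pluripotent cells and the early embryo, had 2 probes (chr4:159064240-159064299 and chr4:159064054-159064113, minus strand, rn4). Neither was well above background on any of the 6 arrays, with log2 signals from -8.28 to -7.73 and from -8.19 to -6.51. For comparison, the dimmest probes that were well above background had log2 signals of -6.36 to -5.78, depending on the array. Both probes were left out of the tests, and no fold is given for them.

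For Gdf1, the partner of Nodal, the array held no probe under that name. Gdf1 lies on 1 transcript with Cers1, a ceramide synthase gene, and the RefSeq annotation gives both genes the same span on chromosome 16. A probe named Cers1 that also lists the Gdf1 transcript (chr16:19580918-19580977, minus strand, rn4) had log2 signals of -0.60, -2.06 and -1.49 in the pre-heartbeat and -0.56, -0.97 and -2.04 in the post-heartbeat group. Its groups overlapped widely, and the difference of 0.19 ± 0.48 (SE, n = 3 per group) changed sign to -0.21 ± 0.20 with the slide as a block (limma adjusted p of 0.913 and 0.952). Another Cers1 probe was not well above background on any array. Signals of Cers1 and of Gdf1 cannot be told apart by such a probe, so these probes were not counted among the 8.

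Cfc1, the membrane-bound co-receptor that lets Nodal and Gdf1 signal, gave an intensity of 27371 to 39768 units (chr9:33287035-33287094, plus strand, rn4). Its log2 signal was 4.27, 4.85 and 4.75 in the pre-heartbeat group and 4.43, 4.54 and 4.51 in the post-heartbeat group, so that the post-heartbeat values lay inside the pre-heartbeat range. The difference was -0.13 ± 0.18 (SE, n = 3 per group), with a 95% interval from -0.56 to 0.31 and a limma adjusted p of 0.869. This interval lies within 1.5 fold in either direction. The direction was opposite on the slides, with 0.22 on slide 1 and -0.29 on slide 2.

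Acvr2b, a type II receptor for Nodal, Gdf1 and activins, was measured by 2 probes that gave alike results. The first (chr8:124392440-124392499, plus strand, rn4) had log2 signals of -0.22, -1.44 and -0.41 before and -0.24, -0.63 and -0.60 after heartbeat initiation. The second (chr8:124395674-124395733, plus strand, rn4) had 2.39, 1.38 and 2.41 before and 2.24, 1.95 and 2.20 after. With both probes, pre-heartbeat replicate 2 was the lowest array and the remaining arrays lay close together. The differences were 0.20 ± 0.33 and 0.07 ± 0.29 (SE, n = 3 per group; limma adjusted p of 0.876 and 0.950), with 95% intervals from -0.57 to 0.97 and from -0.62 to 0.76. Without pre-heartbeat replicate 2 the differences were -0.18 and -0.27, so the sign of both rested on this array.

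Lefty2, the inhibitor of the left lateral plate, was measured on all 6 arrays (chr13:96626431-96626490, plus strand, rn4). Its intensity was 867, 209 and 245 units in pre-heartbeat replicates 1, 2 and 3, and 1859, 1983 and 1334 units in post-heartbeat replicates 1, 2 and 3. The corresponding log2 signals were -0.96, -2.46 and -2.60 before and 0.55, 0.49 and -0.35 after. Every post-heartbeat array was above every pre-heartbeat array, which held in this direction for 5.38% of the tested probes, and within each group the arrays of slide 1 were the highest. The difference was 2.24 ± 0.47 (SE, n = 3 per group), or 4.71 fold, with a 95% interval from 1.13 to 3.34. Its unadjusted p by limma was 0.00200 and its adjusted p 0.178, and the two-sided exact permutation test gave p = 0.1, the smallest p that the 10 splits of 3 against 3 arrays allow.

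Within slides, Lefty2 was higher by 1.48 (2.80 fold) on slide 1 and by 2.18 (4.52 fold) on slide 2. With the slide as a block it rose by 1.83 ± 0.18 (SE), or 3.56 fold, with a 95% interval from 1.42 to 2.24 and a limma adjusted p of 0.00705. That call was kept in 4 of the 6 fits that left out 1 array and kept the block. It was lost without pre-heartbeat replicate 1 (limma adjusted p = 0.0675) and without post-heartbeat replicate 3 (0.153), each of which leaves 1 slide with a single group, while the differences stayed between 1.48 and 2.18. Of the 19299 tested probes, 9 had a larger rise over all arrays and 16 with the slide as a block. Some tested probes, Lefty1 among them, entered only through the group in which they were high.

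Lefty1, the inhibitor of the midline, had its probe 40.7 kb from that of Lefty2 (chr13:96667159-96667218, plus strand, rn4). Before heartbeat initiation its log2 signal was -3.51, -6.97 and -6.43, and only replicate 1 was well above background. After it the log2 signal was -2.43, -2.51 and -3.90, well above background on all 3 arrays. The groups overlapped, because pre-heartbeat replicate 1 (slide 1) was above post-heartbeat replicate 3 (slide 2), but within each slide the post-heartbeat arrays were the higher ones. The difference was 2.69 ± 0.90 (SE, n = 3 per group), or 6.47 fold, with a 95% interval from 0.58 to 4.81 and a limma adjusted p of 0.497 (unadjusted 0.0197). For Lefty1 the two-sided exact permutation test gave p = 0.2, and the methods' test gave p = 0.084 before adjustment. Because 2 pre-heartbeat arrays were near background, this fold rests on signals that were not well above it. With those arrays set to the dimmest signal that was well above background, Lefty1 was 4.72 fold higher over all arrays. On slide 2 it was then 4.34 fold higher. Signals that are not well above background can lie above that level, so these folds are not lower limits.

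On slide 1, where all arrays measured Lefty1, the difference was 1.05 (2.06 fold), and the slide 2 difference was 2.80. The slide 2 value uses both pre-heartbeat signals that were not well above background, as does the fit with the slide as a block, which gave 1.92 ± 0.35 (SE), or 3.79 fold, with a 95% interval from 1.11 to 2.74 and a limma adjusted p of 0.0441. With normexp background correction, which compresses dim signals, the difference was 1.04 without a block and 0.73 with it (limma adjusted p = 0.00450 with the block). In only 2 of the 6 fits with the block that left out 1 array was the call kept. It was lost without pre-heartbeat replicate 1 (limma adjusted p = 0.0961), pre-heartbeat replicate 2 (0.0760), post-heartbeat replicate 1 (0.0817) and post-heartbeat replicate 3 (0.355). Without a block, leaving out 1 array moved the Lefty1 difference between 2.03, without pre-heartbeat replicate 2, and 3.76, without pre-heartbeat replicate 1.

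**Figure D2:**
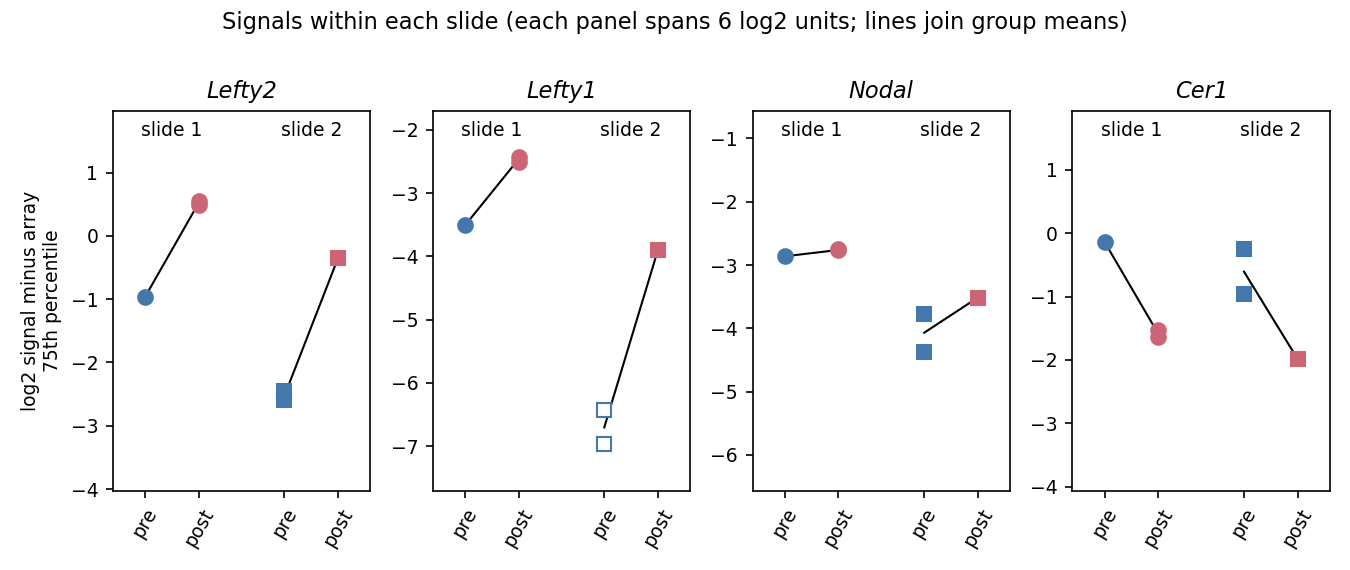
Log2 signal minus the array's 75th percentile (vertical axis) on each array of slide 1 (circles) and slide 2 (squares), in the pre-heartbeat (blue) and post-heartbeat (red) group, with lines between group means and open symbols for signals not well above background. On both slides Lefty2 and Lefty1 were higher and Cer1 lower after heartbeat initiation, and slide 1 was higher than slide 2 in both groups for Lefty2, Lefty1 and Nodal.

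Nodal, Lefty1 and Lefty2 were the 3 of the 6 tested probes whose post-heartbeat arrays lay above the pre-heartbeat arrays within each slide, which held for 12.2% of all tested probes. Because Lefty1 entered the tests only through its post-heartbeat signals, this count is partly fixed by the filter and is a description. On slide 2 the pre-heartbeat signals of Lefty1 were not well above background. The probes whose signals were most like those of these genes over the 6 arrays were taken among 13270 probes of named genes measured on every array. For Lefty2 they were Ier3, Pdk1 and Cck (Pearson r of 0.9955, 0.9936 and 0.9904). For Nodal they included Pank1 and Fitm2 (0.9972 and 0.997). Cfc1 was most like Krtap7-1, Mettl10 and Tmc4, the first Acvr2b probe was most like Baz1b, Myo9b and Sbk1, and genes like the second included Gtf3c2 and Aldh4a1. These are descriptions over 6 arrays that share slides and groups, and they carry no test.

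Other genes of the pathway were described from a list of 44, of which 39 had a probe and 31 were tested. None of the 31 passed limma without a block (4 at an unadjusted p under 0.05, where 7.01% of all tested probes passed), 12 were higher and 19 lower, and their median difference was -0.07 against -0.03 over all tested probes. With the slide as a block 1 of the 31 passed, Cer1, which was lower, where 1.62% of all tested probes passed and 0.461% as lower.

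Cer1 encodes Cerberus, a secreted antagonist of Nodal, BMP and Wnt ligands. The array names its probe by a provisional symbol, and its transcript is that of Cer1 (chr5:101756138-101756197, minus strand, rn4). The log2 signal was -0.14, -0.25 and -0.96 in the pre-heartbeat group and -1.54, -1.64 and -1.99 in the post-heartbeat group, with no overlap, which held in this direction for 6.14% of all tested probes. The difference was -1.27 ± 0.25 (SE, n = 3 per group), or 0.415 fold, with a limma adjusted p of 0.157 (unadjusted 0.00146), and p = 0.1 by the exact permutation test. Cer1 passed the thresholds of the methods' selection when these were applied to decreases, and the mean over its 2 probes was -1.34. With the slide as a block it fell by 1.41 ± 0.20 (SE; limma adjusted p = 0.0195), with -1.45 on slide 1 and -1.38 on slide 2, and the call was kept in 3 of the 6 fits that left out 1 array. It was lost without pre-heartbeat replicate 1 (limma adjusted p = 0.297), post-heartbeat replicate 1 (0.0556) and post-heartbeat replicate 3 (0.289). Thus of the secreted Nodal antagonists, both Lefty genes were higher and Cer1 was lower, while Dand5, the Nodal antagonist of the node margin, differed by 0.20 ± 0.20 (SE; limma adjusted p = 0.866).

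Among the targets and regulators of the left-sided program, Cited2, a transcriptional coactivator, differed by -0.04 (limma adjusted p = 0.939).

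**Figure D3:**
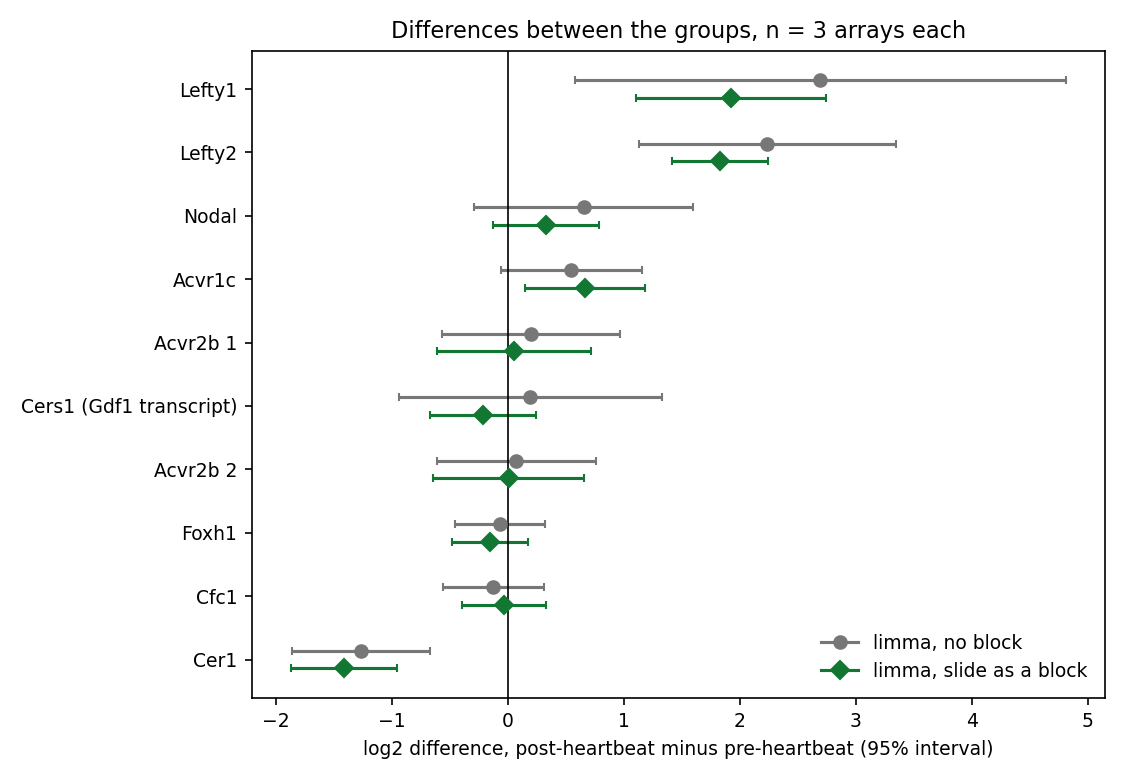
Log2 difference, post-heartbeat minus pre-heartbeat, with 95% intervals (horizontal axis) for the tested probes of the left-right genes, the Cers1 probe of the Gdf1 transcript and Acvr1c, Foxh1 and Cer1, from limma without a block (circles) and with the slide as a block (diamonds), n = 3 arrays per group. The block narrowed the Lefty2 interval from 1.13 to 3.34 to one from 1.42 to 2.24. The intervals of Nodal, Cfc1, Acvr2b and Foxh1 included 0 in both fits. That of Acvr1c included 0 without the block (-0.06 to 1.15) but not with it (0.14 to 1.18).

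The receptors and transducers that the ligands share showed no call in either fit. Of the type I receptors, Acvr1b differed by -0.03 and Acvr1c by 0.54 (limma adjusted p of 0.965 and 0.809), and the type II receptor Acvr2a by 0.0028 (0.996). With the slide as a block Acvr1c differed by 0.66 (limma adjusted p = 0.318), and by 0.22 with the block and normexp. Tdgf1, the other EGF-CFC co-receptor, had no probe under that name. Of the intracellular transducers, Smad2 differed by 0.02, Smad4 by -0.04 and their DNA-binding partner Foxh1 by -0.07 (limma adjusted p of 0.980, 0.964 and 0.905), and Smad3 was not well above background. Smad7, an inhibitor that the pathway induces, differed by 0.36, Drap1, which restrains Foxh1, by -0.12, Trim33 by -0.24 and Skil, a Smad co-repressor, by -0.10, with limma adjusted p of 0.866 to 0.925. Ski had no probe under that name. The convertases that mature Nodal differed by 0.43 (Furin) and 0.56 (Pcsk6), with limma adjusted p of 0.866 and 0.795.

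Of 6 other ligands of the activin receptors and proteins that bind them, Inhba and Mstn were not tested, and none of the other 4 was called. Gdf11 differed by 0.43 and Inhbb by -0.07. Fstl3, a secreted binding protein of activins, differed by 0.46 (unadjusted p of 0.0336 and adjusted p of 0.623 by limma). Its groups did not overlap, which held in this direction for 5.38% of all tested probes. Fst, another such protein, ranged from -3.68 to -1.35 before and from -3.63 to -0.83 after, the widest spread among the pathway genes.

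Genes of the node and of motile and sensory cilia, which break symmetry before Nodal acts, were listed as 19 genes. Of these, 16 had a probe and 11 were tested, 10 of these lay below 0 and 1, Foxj1, above it, and 0 were called in either fit. Their median difference was -0.14, and the median over all tested probes also lay below 0 (-0.03). Some of the values were small against their SE, such as Kif3a (-0.07 ± 0.17) and Ift88 (-0.09 ± 0.13). Kif3a lay above 0 with the slide as a block (0.03). The lowest values were those of Ccdc39 and Ccdc40, which build the axoneme ruler of motile cilia. They differed by -0.49 (Ccdc39) and -0.48 (Ccdc40), with limma adjusted p of 0.866 and 0.564. The groups did not overlap for Ccdc40 and for Mns1 (-0.34), 2 of the 11 genes, where 6.14% of all tested probes were lower without overlap. Noto, the homeobox gene of the node, was not well above background on any array.

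**Figure D4:**
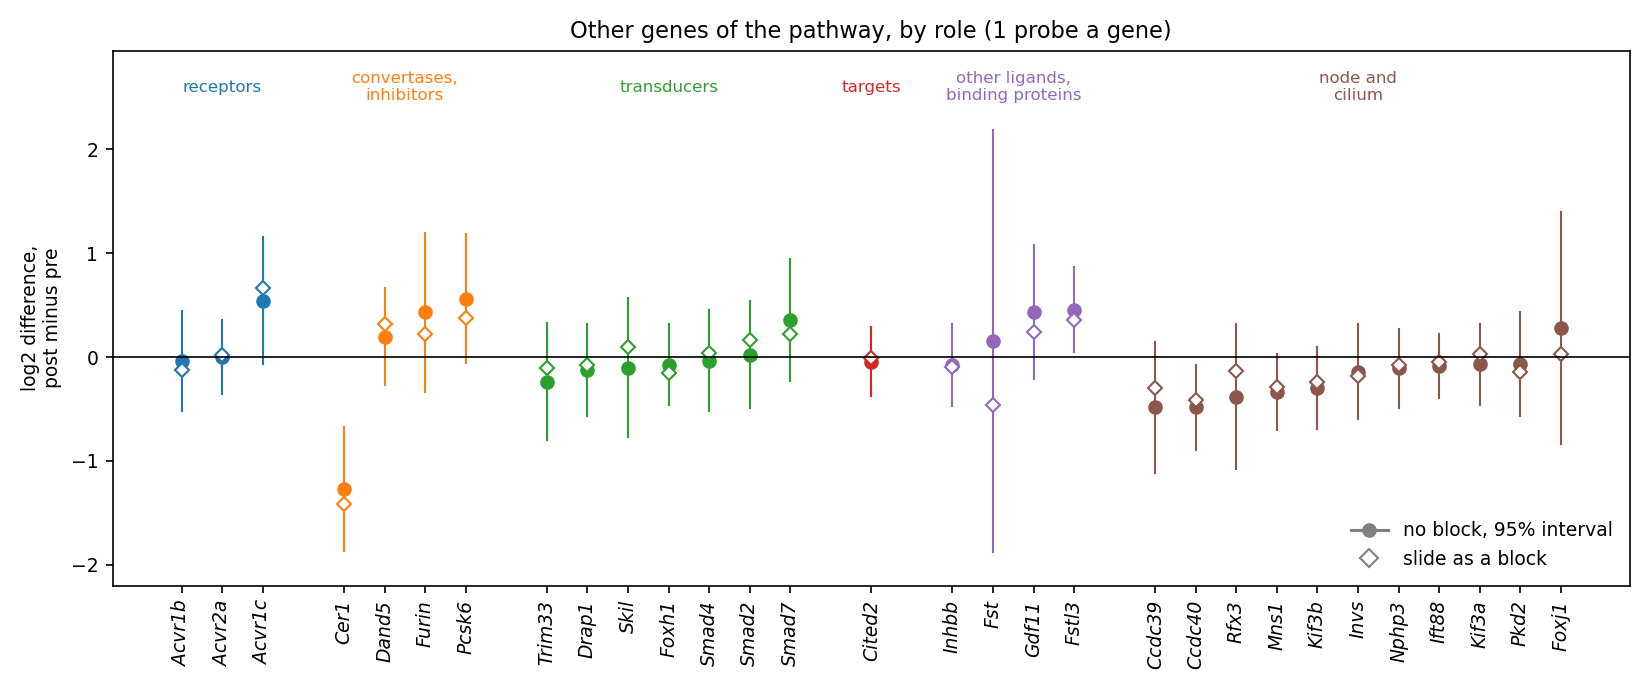
Log2 difference, post-heartbeat minus pre-heartbeat (vertical axis), of tested genes of the pathway by role, with circles and 95% intervals from limma without a block and open diamonds with the slide as a block, n = 3 arrays per group. Most genes lay near 0, with Cer1 at -1.27 and Pcsk6 at 0.56.

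The tissue in which these genes act also varied between arrays, as far as marker lists show it. Summed signals relative to the 75th percentile were 343 to 586 before and 628 to 767 after heartbeat initiation for the 7 cardiac muscle markers, and 2.50 to 3.42 before and 2.74 to 4.13 after for the 5 lateral plate mesoderm markers measured (of 6 listed). Within slides, the lateral plate sum was 3.42 before and 4.13 and 3.85 after on slide 1, and 2.50 and 3.21 before and 2.74 after on slide 2. Of the 6 node, notochord and midline markers, 2 (T and Foxa2) were measured on all arrays and Noto and Shh on none, and the sum was 1.07 to 1.73 before and 0.963 to 1.40 after. Foxa2, which is also on the list of definitive endoderm markers, made up most of this sum in the group means. The sum was 1.73 before and 1.40 and 1.17 after on slide 1, and 1.07 and 1.21 before and 0.963 after on slide 2.

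Marker sums of tissues next to the primordium were also taken, and some of them overlapped between the groups. The sum of 5 neural ectoderm markers on the array (of 6 listed, with Six3 not well above background on any array) was 6.36 to 7.33 before and 2.47 to 3.01 after. Otx2, the head neural gene, made up most of this sum in the group means and differed by -1.56 on the log2 scale (limma adjusted p = 0.0199). Of the 3 tested markers on this list, 1 was higher (Lhx2, 0.43) and 2 were lower, Otx2 and Sox2 (-0.21). The sum of the 6 yolk sac endoderm markers was 49.2 to 51.7 before and 30.8 to 41.1 after, most of it from Ttr (-0.58). Of these 6 markers, 2 were higher (Afp and Amn) and 4 lower. For the 6 definitive endoderm markers the sum was 7.30 to 7.73 before and 6.64 to 7.85 after. For the 6 paraxial mesoderm markers the sum was 21.4 to 23.7 and 24.9 to 26.1, most of it from Tcf15 and Pax3. All 3 tested paraxial markers were higher, and Meox1, Mesp2 and Uncx were not tested. For 5 erythroid markers the sum was 0.204 to 0.304 and 0.290 to 0.354. Of these markers, 2 were higher (Hbz, 0.72, and Epor, 1.26) and 2 lower (Klf1, -0.25, and Alas2, -0.61), and Gata1 was not tested. The part of these tissues in the values of Lefty1, Lefty2 and Cer1 was not tested.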

How the data were processed

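Total RNA of 6 heart primordium samples was labelled with cyanine 3 by the authors and hybridized to 1-colour Agilent rat arrays, 1 array per sample. The authors quantified the scans with Agilent Feature Extraction 10.7.3.1 and deposited the processed signal of each spot, an intensity with the background subtracted and not normalized between arrays, together with a flag for signals well above background. The authors also deposited a table of linear ratios shifted to the 75th percentile and divided by a baseline per probe, whose differences between arrays matched those of the intensity for 100% of probes within 0.01 on the log2 scale after 1 constant per array.

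Control spots and outlier spots were left out, log2 intensity was reduced by the 75th percentile of the array, and spots of a probe were averaged. Tested were the 19299 of 30367 probes with a signal flagged well above background (in no fewer spots than not) on every array of 1 group or both. Groups were compared with limma 3.58.1 (lmFit, eBayes) in R 4.3.3, with Benjamini-Hochberg adjustment over all tested probes and a threshold of 0.05. The slide, read from the file headers, entered as a block in an alternative fit. Single probes were also compared by a two-sided exact permutation test over 10 splits. The number of arrays limits the precision. The selection of the study's methods took upregulated genes by the Tukey HSD test, which for 2 groups is the pooled comparison of means, and it was applied here in both directions. The limma fit without a block was tested on simulated data that held no slide effect. The fit with the slide as a block was not tested in this way.

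Positions are those of the array annotation (rn4), and the transcript listed for a probe led to a current gene name for 18006 probes (59.3%). The members and all lists were chosen with earlier results of these data known. Named are all probes of the members, pathway genes that passed limma or the methods' selection, the receptors, transducers and targets, and the 3 genes most like each member probe measured on all arrays, apart from a few genes that are not reported here. Genes of the other pathway lists that are named besides, such as Dand5, Furin, Fstl3, Fst, Ccdc39, Ccdc40 and Mns1, were chosen after their values were seen. Where a pathway gene had several probes, that with the highest mean signal was used. Replicate numbers did not pair the arrays: deviations of same-numbered arrays from their group means correlated at 0.677, -0.307 and 0.541, against 0.518 to 0.677 for arrays of different groups on the same slide and -0.753 to -0.307 on different slides.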

Additional observations from a re-analysis of the deposited data

How the results depend on the processing

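Without a block 0 of the member probes were called under normexp correction, quantile normalization, the percentile over detected probes, no filter, a filter on all 6 arrays, the authors' ratios, an intensity trend, and leaving out any array (0 to 0). The count was 2 with the slide as a block, 1 with a replicate block (Lefty2, limma adjusted p = 0.0191), 1 by the methods' test (applied in both directions) and 2 with the slide as a block and normexp. For the pathway genes the count was 0 without a block, 0 to 0 when 1 array was left out, and 1 (Cer1, lower) with the slide as a block, with the replicate block, by the methods' test and with the slide as a block and normexp. With the block and 1 array left out it was 0 to 2 for the members and 0 to 1 for the pathway genes. Over all tested probes, 27 were called, against 50 with normexp, 14 with quantile normalization, 21 with the percentile over detected probes, 1 without a filter, 32 with the filter on all 6 arrays, 13 with the authors' ratios, 45 with an intensity trend, 587 by the methods' test, 0 by that test after Benjamini-Hochberg adjustment (587 before it), 312 with the slide as a block, 144 with the replicate block, 375 with the slide as a block and normexp, 0 to 2 with 1 array left out, and, with the slide as a block, 4, 341 and 331 without pre-heartbeat replicates 1, 2 and 3 and 136, 283 and 1 without post-heartbeat replicates 1, 2 and 3. The fits that join the slide block with normexp or with a left-out array were chosen after seeing the data.

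The differences of Lefty1 (0.73 to 3.76), Lefty2 (1.48 to 2.76), Nodal (0.10 to 1.06) and Cer1 (-1.57 to -1.11) kept their sign under every setting run. Lefty1 had no value under the filter on all 6 arrays. The sign of Cfc1 turned with the slide as a block without pre-heartbeat replicate 2 (0.024) and post-heartbeat replicate 3 (0.22). When 1 array was left out, the Acvr2b differences ran from -0.18 to 0.43 and from -0.27 to 0.25, and they turned without pre-heartbeat replicate 2 (-0.18 and -0.27 for its probes, -0.21 and -0.25 with the block), with the block without post-heartbeat replicate 3 (-0.22 and -0.29), and for the second probe with the block without post-heartbeat replicate 1 (-0.012) and with the block and normexp (-0.0028). The cause was not tested. Dim signals limit Lefty1, Gdf3 and Noto, and 3 arrays per group with 2 slides limit every comparison.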
